A study of Homo sapiens with 2 samples.

Results

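Smooth muscle contractile and calponin genes were read in outgrowth cultures of HUES9, a human embryonic stem cell line. The set holds 10 genes, TAGLN, CNN1, CNN2, CNN3, CALD1, MYLK, SMTN, LMOD1, MYOCD and PDLIM7, of 19775 genes that the array represents by at least 1 probe set of their own. A probe set is a group of short probes read as one signal, and every probe set that the platform annotation gives to a member alone was used, 37 in all. Both conditions began with HUES9 cells at passage 32, aggregated for 10 days as embryoid bodies and then plated on fibronectin, where the outgrowing cells were passaged in a chemically defined medium. The SB-OG culture received SB-431542, a small-molecule inhibitor of the type I receptors of TGF-β, activin and nodal, at 10 µM as embryoid bodies and 1 µM as outgrowth, and the control-OG culture received 0.01% DMSO. At outgrowth passage 5, RNA of 3 mixed samples was read on 1 Affymetrix array per condition, so no difference below can be checked against replicates or tested, and the labels do not say whether the mixed samples were separate cultures.

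In smooth muscle, phosphorylation of the myosin regulatory light chain by myosin light chain kinase starts contraction, and actin filaments carry regulatory and anchoring proteins, among them caldesmon, calponin, transgelin and smoothelin. Many of these genes are switched on by serum response factor (SRF), which binds a sequence called the CArG box, together with the coactivator myocardin or the related MRTF proteins. TGF-β is a well-known inducer of this programme in mesenchymal cells, and several of its genes are also used by fibroblasts, by myofibroblasts and by immature skeletal and cardiac muscle.

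All 10 genes were above background on both arrays by at least 1 probe set, and the set did not move in a single direction. By their brightest probe set, PDLIM7, CNN3 and LMOD1 were higher in SB-OG by 2-fold or more, CNN2 was 2.49-fold lower, and the other 6 genes lay within 2-fold. As deposited, MYOCD, TAGLN, CNN1, SMTN and CALD1 had lower signals in SB-OG by that probe set and MYLK a higher one. The signs of these lower genes depend on how the arrays are scaled, as described below. Of the CALD1 probe sets above background, 6 were lower and 3 higher. For PDLIM7 and CNN3, the largest positive differences, probe sets of the same gene disagreed. PDLIM7 was past 2-fold higher by 3 of its 6 probe sets above background, near 0 by others and lower by another, and CNN3 was higher by one of its pair only.

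The background level, the 95th percentile of probe sets for families such as olfactory receptors that are taken here as silent, came to 32.1 for control-OG and 27.2 for SB-OG. Of the 37 probe sets, 30 exceeded it on both arrays, none on a single array, and 7 on neither. The plot of intensities shows each of them. Differences are log2 intensity in SB-OG minus control-OG, and a gene is represented by its brightest probe set unless another is named by its identifier. Levels of different probe sets are not comparable with each other. Across 4953 genes with several probe sets above background on both arrays, the SD of log2 differences among probe sets of a single gene was 0.47, which is the only spread these data hold and is not an error between cultures.

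**Figure D1:**
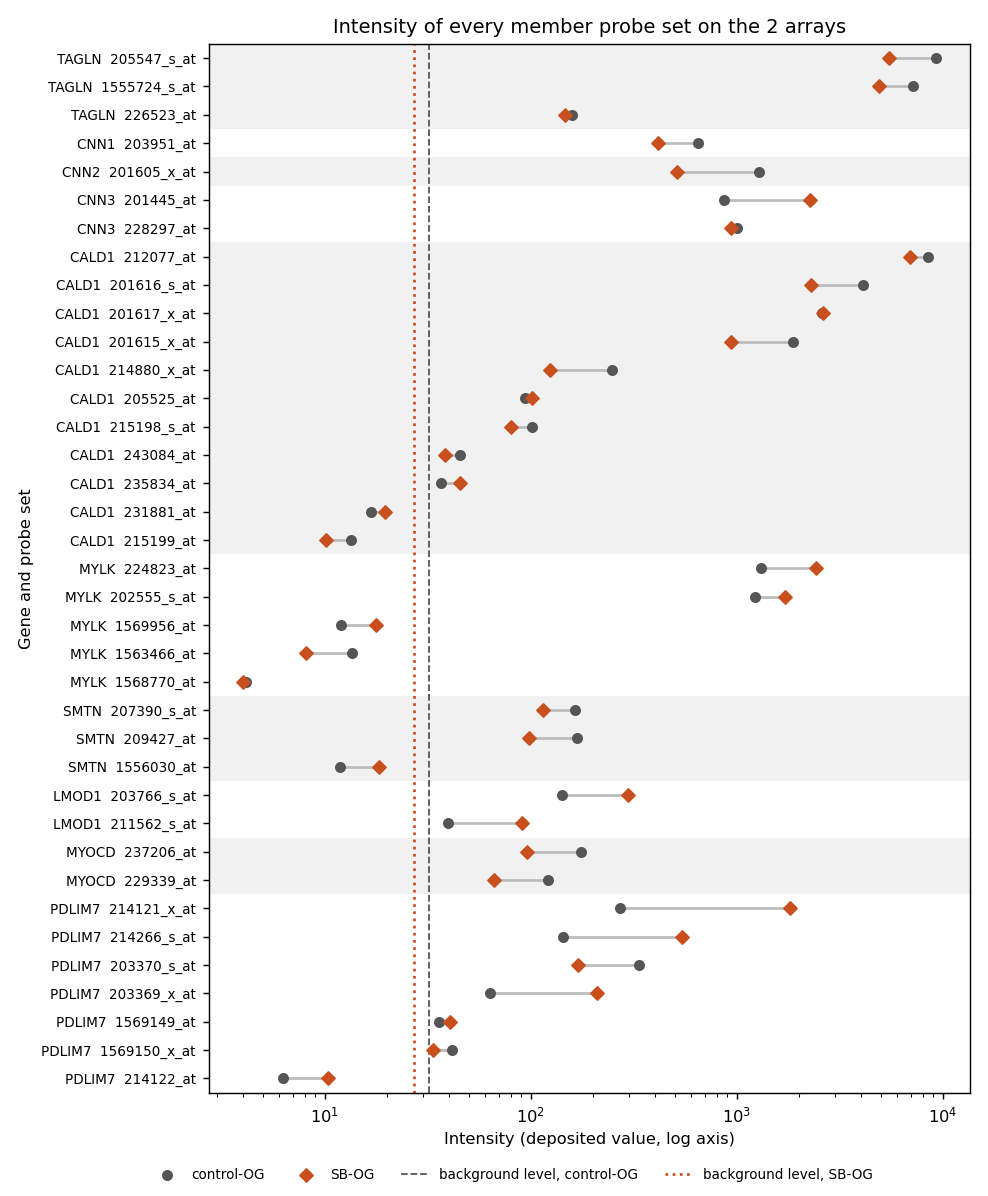
Deposited intensity (log axis) of each of the 37 member probe sets on control-OG (grey circles) and SB-OG (orange diamonds), with the background level of each array as a vertical line. The longest shift to the right is that of PDLIM7 214121_x_at, from 271 to 1822, while PDLIM7 203370_s_at shifts left from 336 to 170; both TAGLN probe sets at the top right lie lower in SB-OG.

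Of the 30 member probe sets above background, 6 (20.0%) passed 2-fold upward in SB-OG and 1 passed it downward, against 12.7% and 12.0% of all 23511 named probe sets above background on at least 1 array. The 6 came from 3 genes, with 3 from PDLIM7, 2 from LMOD1 and 1 from CNN3. By brightest probe set, 3 of 10 genes were 2-fold higher and 1 was 2-fold lower, against 12.4% and 13.0% of 12557 genes. The median difference over the 30 probe sets was -0.27, and over all probe sets above background it was 0.01. Without regard to sign, the members' median difference was 0.76 per probe set and that of all probe sets 0.52.

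The deposited arrays are scaled to a common trimmed mean, and the signs of small differences depend on that scaling. When SB-OG was rescaled on the hybridisation controls, the median gene moved from -0.02 to 0.45, the median of the member probe sets was 0.20, and 4 member genes were 2-fold higher and 0 lower. Among genes at least 2-fold apart, the share higher in SB-OG was 48.8% as deposited and 76.8% after that rescaling (3020 genes higher and 911 lower). Relative to the median gene, TAGLN, CNN1, CNN2, CALD1, SMTN and MYOCD lay below and CNN3, MYLK, LMOD1 and PDLIM7 above under each of the 6 scalings computed. Centring and scaling on control transcripts shift all genes alike, so only quantile normalization and the lowess correction could change a gene's side. CALD1 was at only -0.00085 from that median under quantile normalization. That check was made for the 10 members only, and every difference and 2-fold call below is as deposited unless a scaling is named. In cultures of mixed cells, fewer cells of a type and less RNA per cell cannot be told apart.

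**Figure D2:**
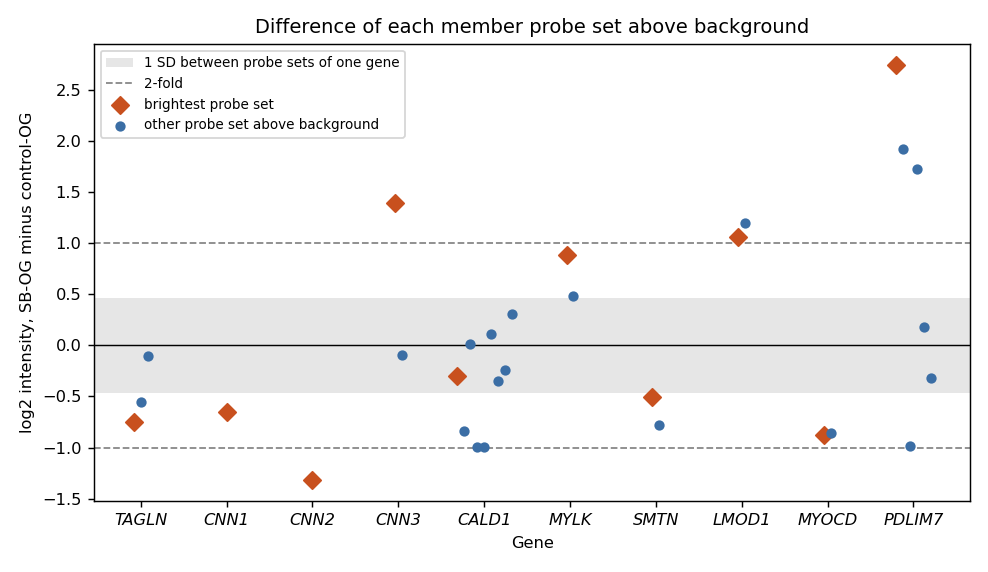
log2 difference (SB-OG minus control-OG) of the 30 member probe sets above background, by gene; orange diamonds are the brightest probe set, blue circles the others, dashed lines mark 2-fold and the grey band 1 SD (0.47) between probe sets of a gene. PDLIM7 spans from -0.98 to 2.75, CNN3 has one probe set at 1.40 and one at -0.10, and both MYOCD probe sets lie at about -0.87.

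Promoter sequences were searched for the CArG box because SRF binding there is the shared control element of the smooth muscle programme. RefSeq promoter windows of 250 bases before to 50 after a transcript start were listed for 8 of the 10 members, 15 windows in all on GRCh38.p14, with no entry for TAGLN and MYOCD. An exact CArG box, a palindromic pattern that reads alike on both strands, lay in 3 of the 15 windows and in 1.29% of all 35116 windows of that length. The matches were in windows of CNN2, MYLK and SMTN. The 120 bases before each of these starts are shown 5′ to 3′ on the gene's strand, with the CArG box in capitals.
CNN2, chr19:1026488-1026607, plus strand: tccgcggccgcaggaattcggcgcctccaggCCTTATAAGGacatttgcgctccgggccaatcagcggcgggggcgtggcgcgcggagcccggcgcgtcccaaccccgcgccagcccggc
MYLK, chr3:123620549-123620668, minus strand: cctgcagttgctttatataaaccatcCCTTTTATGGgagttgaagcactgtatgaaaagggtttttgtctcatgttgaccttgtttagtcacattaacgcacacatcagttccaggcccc
SMTN, chr22:31084876-31084995, plus strand: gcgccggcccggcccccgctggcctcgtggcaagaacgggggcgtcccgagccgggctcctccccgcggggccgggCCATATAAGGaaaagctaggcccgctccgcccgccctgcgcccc
The box begins at position -89 in CNN2, -94 in MYLK and -44 in SMTN, counted back from the start. The MYLK window is the only one listed for that gene and lies inside it, 10499 bases before its 3′ end, where a short transcript for telokin, the myosin-binding tail of the kinase, is known to start. The SMTN start shown lies 20878 bases inside that gene, and its other windows, including the one at its 5′ end, held no exact box. In the array data as deposited, the 3 genes with such a box went different ways by brightest probe set. CNN2 and SMTN were lower in SB-OG and MYLK higher, with SMTN and MYLK within 2-fold. Whether those probe sets read transcripts from the starts shown was not tested. The MCAT element bound by TEAD factors (CATTCC or its reverse complement GGAATG) was in 6 of the 15 member windows and 14.0% of all windows, and the palindromic SMAD box (GTCT directly followed by AGAC) in 0 of 15 and 0.202% of all. A match is a description of these letters only.

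The calponins, actin-binding proteins that restrain myosin, were read by isoform. CNN1, the basic calponin that marks differentiated smooth muscle, read 649 on control-OG and 414 on SB-OG by its single probe set, a difference of -0.65. CNN2, the neutral calponin of many non-muscle and smooth muscle cells, read 1280 on control-OG and 513 in SB-OG, a difference of -1.32. It was the single member at least 2-fold lower in SB-OG as deposited, a call that scaling on either set of control transcripts removed. Its single probe set, 201605_x_at, carries a suffix for probes that may also match other transcripts, so no specific probe set was available for it.

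CNN3, the acidic calponin found in brain, fibroblasts and fusing myoblasts, rested on a pair of probe sets that disagreed. By 201445_at it read 863 on control-OG and 2270 on SB-OG, 2.63-fold higher. By 228297_at it read 1002 on control-OG and 935 in SB-OG, a difference of -0.10. Both identifiers are of the gene-specific kind and both were well above background, and the 1.49 between them was matched or exceeded in 3.65% of 4195 genes with 2 or 3 probe sets above background on both arrays. Which of them better represents CNN3 was not tested.

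TAGLN, encoding transgelin, an early and abundant actin-bundling protein of the calponin family, kept a strong signal in both cultures. Its brightest probe set, 205547_s_at, read 9244 on control-OG and 5484 on SB-OG, 1.69-fold lower. By 1555724_s_at it read 7181 and 4885, a difference of -0.56, and by 226523_at, the dimmest and the only one with a gene-specific identifier, 158 and 147, a difference of -0.11. All 3 lay below 0 as deposited and none reached 2-fold.

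CALD1, encoding caldesmon, an actin-binding protein that exists as a heavy form in smooth muscle and light forms in other cells, had 11 probe sets, of which 9 were above background. The brightest, 212077_at, read 8513 on control-OG and 6922 in SB-OG, a difference of -0.30 that was within the SD of 0.47. Of the 9, 6 lay below 0 and 3 above, with a median of -0.30 and a range from -0.997 to 0.31. The probe sets 201615_x_at and 214880_x_at lay just short of 2-fold lower, the first at 1868 and 936. By contrast, 201617_x_at read 2589 and 2609, with no difference between the cultures. The annotation does not say which caldesmon form a probe set detects, and the spread of 1.30 across them was matched or exceeded in 23.6% of 758 genes having at least 4 such probe sets.

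MYLK, the gene of the kinase that starts contraction, was the contractile enzyme of the set and had higher signals in SB-OG. Its brightest probe set, 224823_at, read 1314 on control-OG and 2432 on SB-OG, 1.85-fold higher. By 202555_s_at it read 1219 and 1706, a difference of 0.48. The other 3 of its 5 probe sets were under background on both arrays, at most 17.7. The annotation does not say whether the probe sets above background separate the full-length kinase from telokin.

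SMTN, encoding smoothelin, a cytoskeletal protein of contractile smooth muscle, gave modest signals. It read 163 on control-OG and 115 on SB-OG by 207390_s_at, and 169 and 98.5 by 209427_at, differences of -0.51 and -0.78. Both were lower in SB-OG and neither reached 2-fold. Its remaining probe set was under background on both arrays.

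LMOD1, a leiomodin that nucleates actin filaments in smooth muscle, was higher in SB-OG by both of its probe sets. By 203766_s_at it read 142 on control-OG and 296 on SB-OG, 2.09-fold higher, and by 211562_s_at 39.8 and 91.0, a difference of 1.20. The probe sets differed from each other by only 0.13. Both lie just past the 2-fold threshold, and the brightest was short of it under quantile normalization (0.97), the lowess correction (0.997) and a pseudocount of 16 (0.98). As for CNN2, neither identifier is of the gene-specific kind.

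MYOCD, the coactivator of SRF that directs smooth and cardiac muscle genes, was lower in SB-OG by both probe sets. By 237206_at it read 175 on control-OG and 95.5 on SB-OG, and by 229339_at 121 and 66.5, differences of -0.87 and -0.86. The difference between its probe sets, 0.01, was matched or exceeded in 98.8% of genes with 2 or 3 probe sets above background on both arrays. Neither reached 2-fold, and under scaling on the poly-A controls the brightest was at 0.32.

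PDLIM7, encoding a PDZ and LIM domain protein that links actin and tropomyosin to signalling proteins, had the largest difference of the set and the least uniform probe sets. By 214121_x_at it read 271 on control-OG and 1822 on SB-OG, 6.71-fold higher, by 214266_s_at 143 and 542, and by 203369_x_at 63.3 and 210.0, differences of 1.93 and 1.73. By 203370_s_at it read 336 and 170, a difference of -0.98. Near background, 1569149_at was at 0.18 and 1569150_x_at at -0.32. The 3.73 between its extremes was matched or exceeded in 4 of those 758 genes, PDLIM7 among them. The 3 probe sets past 2-fold higher, and also the lower 203370_s_at and 1569150_x_at, carry a suffix for probes that can match other transcripts. The mean over its 6 probe sets was 0.88.

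**Figure D3:**
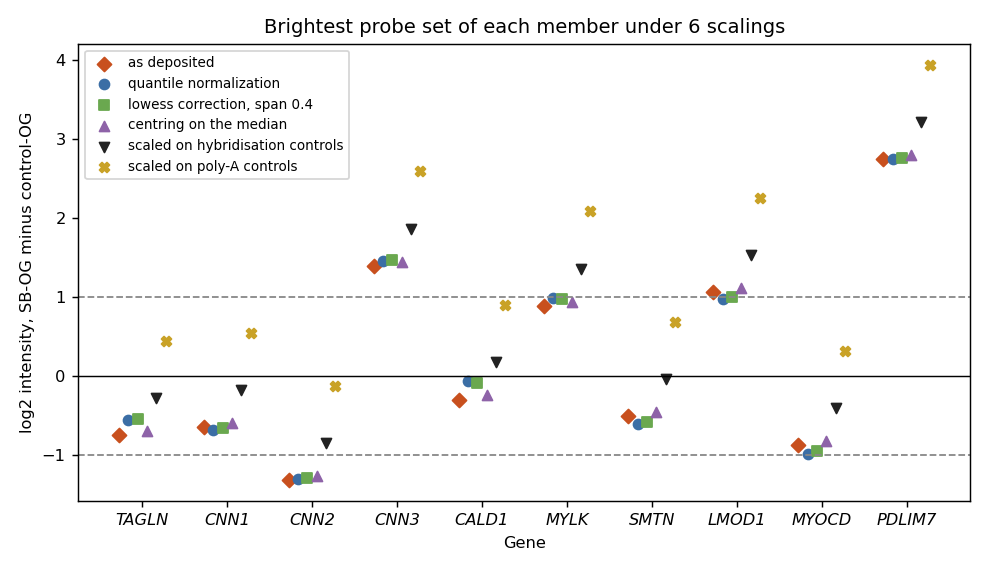
log2 difference (SB-OG minus control-OG) of each member's brightest probe set under 6 scalings of the arrays, with dashed lines at 2-fold. The 4 members above 0 as deposited stay above it in all 6, though centring and the control scalings only raise values here. CNN2 stays below 0, and scaling on the poly-A controls puts TAGLN, CNN1, CALD1, SMTN and MYOCD above 0, by 0.32 to 0.90.

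The wider contractile apparatus was read through a list of 17 partner genes, of which 16 had a probe set and all 16 were above background. In SB-OG 5 of them were higher by 2-fold or more and 1 was lower, with a median of 0.28. Among all 12557 genes above background, 12.4% were 2-fold higher and 13.0% lower. DES, an intermediate filament gene of all muscle, went from 51.7 in control-OG to 2550 in SB-OG, 49.3-fold higher. MYH11, the smooth muscle myosin heavy chain, was under background on control-OG (8.93) and at 1064 in SB-OG, a difference of at least 33.1-fold; its other probe sets gave 0.89 to 3.65. KCNMB1, a subunit of the calcium-activated potassium channel of smooth muscle, was 3.82-fold higher, the LIM protein gene CSRP1 3.34-fold and PLN, the inhibitor of the calcium pump, 2.36-fold, though other PLN probe sets gave 0.20 to 1.24. TPM1, a tropomyosin gene, was the lower one, at 8707 and 4171, with other probe sets from -1.87 to 3.77. The smooth muscle actins stayed within 2-fold by their brightest probe sets, with ACTA2 at 9239 and 10988 and ACTG2 at 5240 and 5430, but the other ACTA2 probe set above background was at 1.62.

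Among 19 regulators of smooth muscle genes, 8 passed 2-fold upward in SB-OG and 2 downward, with a median of 0.54. The shares over all 12557 genes were 12.4% upward and 13.0% downward. SRF itself read 206 on control-OG and 495 on SB-OG, 2.41-fold higher, but a second probe set gave -0.19. Of the myocardin-related coactivators, MRTFB was 3.26-fold higher, from 143 to 465, and MRTFA read 151 and 144. CSRP2, a LIM protein gene of smooth muscle, was 2.96-fold lower, from 10860 to 3664. The list's largest differences were those of MEF2C (85.8-fold higher), a muscle factor that skeletal muscle also uses, GATA6 (at least 22.1-fold lower), NOTCH3 (13.2-fold higher), a receptor of mural cells, PRKG1 (12.2-fold higher), the cGMP-dependent kinase that relaxes smooth muscle, and the Notch ligand JAG1 (4.68-fold higher).

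The genes that set light chain phosphorylation were read next. Of 19 with a probe set, 17 were above background, with 3 past 2-fold upward in SB-OG, 0 downward and a median of 0.24. Over all 12557 genes 12.4% passed 2-fold upward and 13.0% downward, so the upward count here is near the overall share. MYLK4, a relative of MYLK, was under background on control-OG (26.2) and at 250.3 in SB-OG, a difference of at least 7.80-fold, and by another probe set -0.03. PPP1R14A, an inhibitor of myosin phosphatase, was 3.50-fold higher and PPP1R12B, a targeting subunit of that phosphatase, 2.82-fold. MYLK2, the skeletal muscle kinase of this family, was not above background on either array. RHOA, ROCK1, ROCK2 and the phosphatase genes PPP1CB and PPP1R12A lay within 2-fold, between 0.09 and 0.31.

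The closest relatives of the members had a median difference of 1.67, beside -0.40 for the members by brightest probe set. Of 15 relatives above background, 8 passed 2-fold upward in SB-OG and 1 downward, beside 12.4% and 13.0% of all 12557 genes. Restricted to probe sets with a gene-specific identifier, their median was 0.31. LMOD3, a leiomodin of skeletal muscle, was under background on control-OG and at 1530 in SB-OG, a difference of at least 47.7-fold, beside the 2.09-fold of LMOD1. LDB3 and PDLIM3, PDZ and LIM domain genes of the striated muscle Z-disc, were 27.1-fold and 17.5-fold higher, the latter with other probe sets at 0.18 to 0.50. The tropomodulin gene TMOD1 was at least 8.77-fold higher and TAGLN3, the neuronal transgelin, at least 7.62-fold. TAGLN2, the transgelin of non-muscle cells, went from 2061 to 1137, 1.81-fold lower, and PDLIM2 was 3.01-fold lower. How far a member's probe set also detects a relative was not tested.

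**Figure D4:**
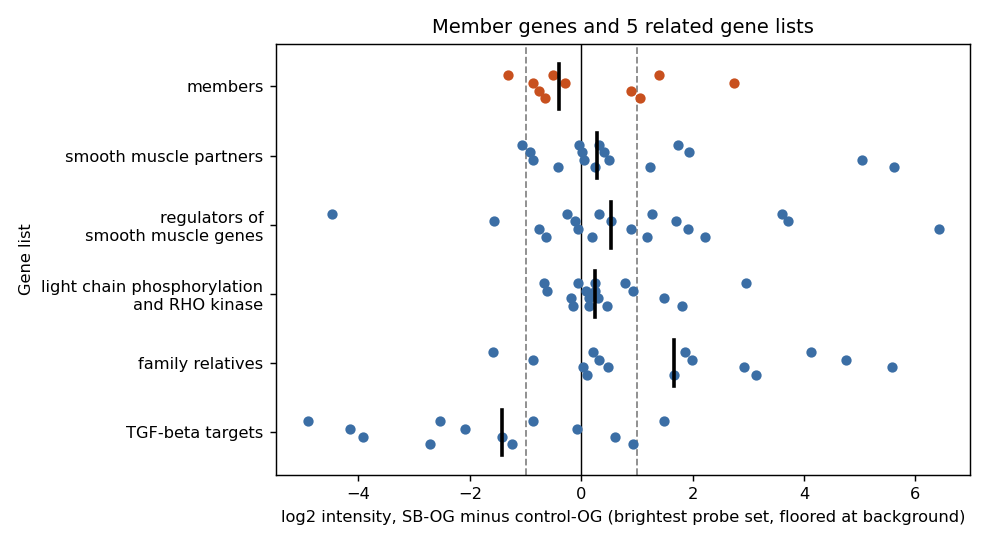
log2 difference (SB-OG minus control-OG) of each gene above background on at least 1 array by its brightest probe set, for the 10 members and the 5 related lists, with the median of each list as a black bar and dashed lines at 2-fold; values under background were set to it, so some points are lower bounds in size. The members lie between -1.32 and 2.75, relatives of the members reach 5.57, and TGF-β targets have a median of -1.43.

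TGF-β targets outside the set were read beside it, from a list chosen with earlier results of these data known. Of 13 above background, 8 passed 2-fold downward in SB-OG and 1 upward, with a median of -1.43. Among all 12557 genes, 13.0% passed 2-fold downward and 12.4% upward. COL1A1 is also one of the fibroblast markers below, and the part of cell types in these values was not tested. LTBP2 was 30.1-fold lower, LMCD1 17.8-fold, TGFBI 15.1-fold, CDKN2B 6.57-fold and BHLHE40 5.78-fold. TIMP3, an inhibitor of matrix proteases, was the one past 2-fold upward, at 2.79-fold, while its other probe sets gave 0.38 to 0.56. ADAM19 and CCN2 were above 0 within 2-fold, at 0.94 and 0.61. The lowest member of the smooth muscle set, CNN2, was 2.49-fold lower.

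Markers of other cell types differed between the arrays beside these values, counted here as 2-fold calls by brightest probe set. Over all 12557 genes such calls made up 12.4% upward and 13.0% downward. Of 13 skeletal muscle markers above background, 12 passed 2-fold upward in SB-OG, and the 14 on the array summed to an intensity of 504 in control-OG and 66065 in SB-OG. All 8 fibroblast markers passed 2-fold downward in SB-OG, with sums of 85347 and 30942. Of 7 pericyte markers above background, 5 passed 2-fold upward and 1, ANPEP, downward, with CSPG4 at -0.88 and sums of 864 and 3369, and KCNJ8 was under background by its brightest probe set. The 8 genes read as smooth muscle markers were TAGLN, CNN1, LMOD1, MYOCD, SMTN, ACTA2, ACTG2 and MYH11. Several of them are also used by other cells, as described above, and TAGLN, CNN1, LMOD1, MYOCD and SMTN are members of the set. LMOD1 and MYH11 passed 2-fold upward and 0 downward, while TAGLN, CNN1, MYOCD and SMTN lay below 0 within 2-fold. The brightest probe sets of LMOD1 and MYH11 do not have gene-specific identifiers. The sums over these 8 genes were 24860 and 23886, most of each from ACTA2, TAGLN and ACTG2, so they say little of the dimmer genes. Of 8 cardiac markers, 2 were above background and neither reached 2-fold by its brightest probe set, though other GATA4 probe sets gave -1.76 to -0.81. The defining markers NKX2-5, TBX5, MYL2, MYL7, MYH6 and TNNI3 were under background on both arrays. Of 4 epithelial markers above background, the keratin genes KRT8, KRT18 and KRT19 passed 2-fold downward and CDH1 upward, from under background (26.9) to 82.8, while EPCAM and CLDN4 were under background on both arrays. The epithelial sums were 16527 for control-OG and 461 for SB-OG. Of 3 endothelial markers above background, KDR and TEK passed 2-fold downward and PECAM1 was above background in SB-OG only, while CDH5 and VWF were under it on both. The endothelial sums were 1367 and 88.9, with most of the first from KDR and TEK. The part of these cell types in the members' differences was not tested.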

How the data were processed

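The authors deposited linear intensity values, 54675 probe sets per array, for 1 array per condition, and how probes were summarised is not stated in the labels. After trimming 2% of probe sets at each end, both arrays had a mean of 150.02, so both appear scaled to a common level. Probe sets with 1 gene in the platform annotation were used (41091 of them), with symbols updated through the RefSeq gene table of GRCh38.p14. Background was the 95th percentile of 217 probe sets from the late cornified envelope, defensin, keratin-associated protein and taste and olfactory receptor families. Lower values were set to it, so a fold of a gene above it on 1 array only is a lower bound ("at least"). The number of arrays limits the precision, and no test was possible. The members, lists and rules were chosen with earlier results of these data known. Of each list, the text names at most 5 genes, those past 2-fold with the largest differences; it names others picked with their values in view. The calculation was tested on simulated data, with differences past 2-fold planted in probe sets well above background. The simulated noise was smaller than the spread between real probe sets. That test does not bear on calls near 2-fold or near background. Python 3.11.15, numpy 2.4.6, pandas 2.3.3 and statsmodels 0.14.6 were used.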

Additional observations from a re-analysis of the deposited data

How the results depend on the processing

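No paired analysis was possible because each condition had 1 array. Of 239 values computed under 12 alternatives, 177 kept within 1.5 times (counts) or 0.47 on the log2 scale (differences) and 62 moved further. Scaling on the hybridisation and poly-A controls gave 21 and 14 of those 62, since each shifts every member difference past that limit by construction. None of the differences past 2-fold changed sign (0). The control scalings only raise values, so positive differences could not change sign under them. Scaling on the poly-A controls and a common background level, were chosen after seeing the data.

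Scaling on the hybridisation controls adds 0.47 to each difference by construction and gave -0.28 for TAGLN, -0.18 for CNN1, -0.85 for CNN2, 1.87 for CNN3, 0.17 for CALD1, 1.36 for MYLK, -0.038 for SMTN, 1.53 for LMOD1, -0.40 for MYOCD and 3.22 for PDLIM7, a median of 0.20 over member probe sets, and 0 probe sets and 0 genes at least 2-fold lower. With it, 0 smooth muscle partners were lower, 5 light chain genes higher and 3 TGF-β targets higher. Scaling on the poly-A controls adds 1.20 and gave 0.44, 0.55, -0.12, 2.59, 0.90, 2.08, 0.69, 2.26, 0.32 and 3.94 for the same genes in that order, a median of 0.92, 14 probe sets higher and 0 lower, and 0 genes lower. Over the whole array, that scaling put the median gene at 1.17, with 7494 genes at least 2-fold higher and 442 lower. Quantile normalization and the lowess correction each gave 3 member probe sets 2-fold lower, and with quantile normalization 0 partners were lower. At 3-fold, 3 probe sets and 1 gene were higher and 0 probe sets and 0 genes lower. With the mean of a gene's probe sets, CNN3 was at 0.65 and PDLIM7 at 0.88, 1 member gene was higher, 2 relatives were lower and 0 TGF-β targets higher. With only probe sets specific by identifier (suffix _at alone), which leaves out CNN2 and LMOD1, TAGLN was at -0.11 and PDLIM7 at 0.18, and 1 probe set and 1 gene were higher and 0 of each lower. Under that choice 0 partners were lower, 4 regulators higher and 1 lower, 5 relatives higher and 0 TGF-β targets higher. Without a floor, 5 light chain genes were higher. The cause was not tested for the alternatives other than the rescalings and the choice of probe sets, which shift or drop values by construction.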

Other observations

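Some member probe sets are annotated with the same source sequence and can be set side by side. For PDLIM7, 214121_x_at read 271 on control-OG and 1822 on SB-OG, while 214122_at, annotated with the same sequence, read 6.26 and 10.4, under background on both arrays. The PDLIM7 pair 1569149_at and 1569150_x_at differed in sign, at 0.18 and -0.32. For CALD1, 215198_s_at read 102 and 79.8, and its pair 215199_at was under background on both arrays.

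Probe sets for control transcripts that are no part of a comparison also differed between the arrays. The 18 hybridisation control probe sets, for transcripts meant to be added after labelling, required a shift of 0.47 on the log2 scale to bring SB-OG level with control-OG. The 24 poly-A control probe sets, for transcripts meant to be added to the RNA, required 1.20. Whether these transcripts were added here, and whether their probe sets were above background, was not checked. Results scaled on them carry that limit.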
